A study of Rattus norvegicus with 12 samples.

Results

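The immediate early genes described here are Fos, Fosb, Junb, Atf3, Egr1, Egr2, Nr4a1, Ier2, Btg2 and Dusp1. All 10 were chosen with earlier results of these data known, so their counts beside the shares of all genes are descriptions. They were found by gene symbol in the count tables of both sampling days, where 10 of the 34322 genes matched, and each of the 10 passed the filter on low counts in every comparison. RNA of whole hearts from wild-type male SD rats, a laboratory strain labelled as 180 to 200 g, was depleted of ribosomal RNA and sequenced. Rats received sorafenib, an oral multikinase inhibitor whose targets include RAF kinases and VEGF receptors, at 50 mg/kg once a day, or deionized water, for 14 or 28 days. There were 4 groups of 3 libraries. At day 28 the numbered replicates were 2, 3 and 4 for sorafenib and again 2, 3 and 4 for water. At day 14 they were 5, 6 and 7 for sorafenib, against 2, 3 and 7 for water. All values of a group below follow that replicate order. Whether the 3 libraries of a group come from 3 rats is not stated in the sources used here, and the p-values then cover only the spread among libraries, which may be technical.

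Immediate early genes are transcribed within minutes of a stimulus without new protein synthesis, and their transcripts are usually short-lived. Growth factors, stretch, adrenergic signals and stress reach them through ERK and other kinases, which act on serum response factor at CArG boxes and on CREB-family factors at cAMP response elements (CRE). Most encode transcription factors, and some encode inhibitors that end the response. In the heart they are known for their response to load and catecholamines.

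CRE and CArG matches were sought in the promoters because both elements are the textbook entry points to these genes. RefSeq promoter windows of the GRCr8 build, which run from 250 bases before to 50 bases after the start, were at hand for 8 of the 10 genes (not for Fos and Atf3). A full CRE, TGACGTCA, which reads the same on both strands, was present in Ier2, Btg2 and Dusp1, against 1.83% of 33469 windows. A CArG box was present in Egr1 and Egr2, against 1.64% of windows. The EGR element GCGNGGGCG, on either strand, was present in Btg2 and Nr4a1, against 4.98% of windows. These are letter matches, and no binding was measured. The 250 bases before the start are shown for the CRE-bearing genes and Egr2, 5′ to 3′ on the strand of the gene, with the matches in capitals. The intervals are chr19:40399123-40399372 (+) for Ier2, chr13:48087691-48087940 (-) for Btg2, chr10:17184603-17184852 (+) for Dusp1 and chr20:21054442-21054691 (-) for Egr2.
Ier2: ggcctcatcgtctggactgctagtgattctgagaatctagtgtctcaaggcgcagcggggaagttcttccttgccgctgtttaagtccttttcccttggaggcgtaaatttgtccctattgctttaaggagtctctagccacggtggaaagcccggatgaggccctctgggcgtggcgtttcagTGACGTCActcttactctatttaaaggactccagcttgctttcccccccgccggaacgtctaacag
Btg2: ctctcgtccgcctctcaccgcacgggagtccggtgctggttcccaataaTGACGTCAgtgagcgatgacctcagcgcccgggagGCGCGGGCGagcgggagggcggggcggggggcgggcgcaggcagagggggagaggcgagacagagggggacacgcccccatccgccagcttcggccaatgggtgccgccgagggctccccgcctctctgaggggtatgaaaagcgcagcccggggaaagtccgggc
Dusp1: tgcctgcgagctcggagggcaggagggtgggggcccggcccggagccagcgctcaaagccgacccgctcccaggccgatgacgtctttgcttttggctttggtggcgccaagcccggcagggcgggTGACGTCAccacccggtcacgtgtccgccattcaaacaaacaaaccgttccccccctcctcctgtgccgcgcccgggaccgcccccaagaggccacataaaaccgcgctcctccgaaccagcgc
Egr2: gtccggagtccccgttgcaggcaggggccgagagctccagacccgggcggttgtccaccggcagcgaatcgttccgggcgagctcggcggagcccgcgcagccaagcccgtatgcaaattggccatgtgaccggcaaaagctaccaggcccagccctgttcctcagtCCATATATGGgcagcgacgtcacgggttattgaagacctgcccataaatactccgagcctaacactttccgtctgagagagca
The CRE began 66 bases before the start in Ier2, 201 bases before it in Btg2 and 124 bases before it in Dusp1. The CArG box of Egr2 began 83 bases before the start, and the capitals after the CRE in Btg2 mark the EGR element, 166 bases before the start.

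The count tables held 13746366 to 18534816 counts per library at day 14. At day 28 they held 16785038 to 26403196 counts in 5 libraries and 1036483 in sorafenib day 28 replicate 3, where 1 count is worth 0.835 CPM. In that library Fosb rests on 2 counts, Egr2 on 4 and Atf3 on 7, and the other members on 31 to 213. The levels below are counts scaled to a common library size with TMM factors over all 12 libraries (CPM). All 6 cardiomyocyte markers were detected in every library, at summed levels of 28735 to 68146 CPM.

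All 10 genes were lower in sorafenib hearts than in water hearts of day 28, and for all 10 every sorafenib library lay below every water library. Groups that lie apart downward were found for 11.9% of the 17021 genes tested at that day. The log2 fold changes ran from -1.79 for Egr2 to -0.51 for Ier2, with a median of -0.97, against a median of 0.00 over all genes tested. None of the 10 passed an adjusted p of 0.05 in edgeR's quasi-likelihood test, nor did any other gene (0% called). At an unadjusted p below 0.05 in edgeR's test, 10 of 10 members were lower, against 7.83% of all genes. DESeq2 called 8 of 10 (all but Ier2 and Dusp1), and the share of all genes that it called is not given here. Without the shallow library, sorafenib day 28 replicate 3, 10 of 10 were still lower with unadjusted p below 0.05, the median was -1.01, and 0 passed the adjusted threshold.

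At day 14 the same 10 genes again had log2 fold changes below 0, as had 49.8% of the 17406 genes tested, but the libraries of each group spread widely and only Dusp1 had groups that lay apart (10.6% of genes did so downward). The log2 fold changes ran from -2.02 for Egr1 to -0.09 for Btg2, with a median of -0.92 against 0.00 over all genes tested. None passed an adjusted p of 0.05 in edgeR's quasi-likelihood test (0% of genes did), and 4 of 10 were lower at an unadjusted p below 0.05 against 6.93% of genes. DESeq2 called Dusp1 alone of the 10, and its share over all genes is not given here. The median was -0.37 without water day 14 replicate 7, with 8 of 10 genes still below 0, and -1.39 without sorafenib day 14 replicate 5. Day 14 and day 28 share no library, so these are separate sets of samples.

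**Figure D1:**
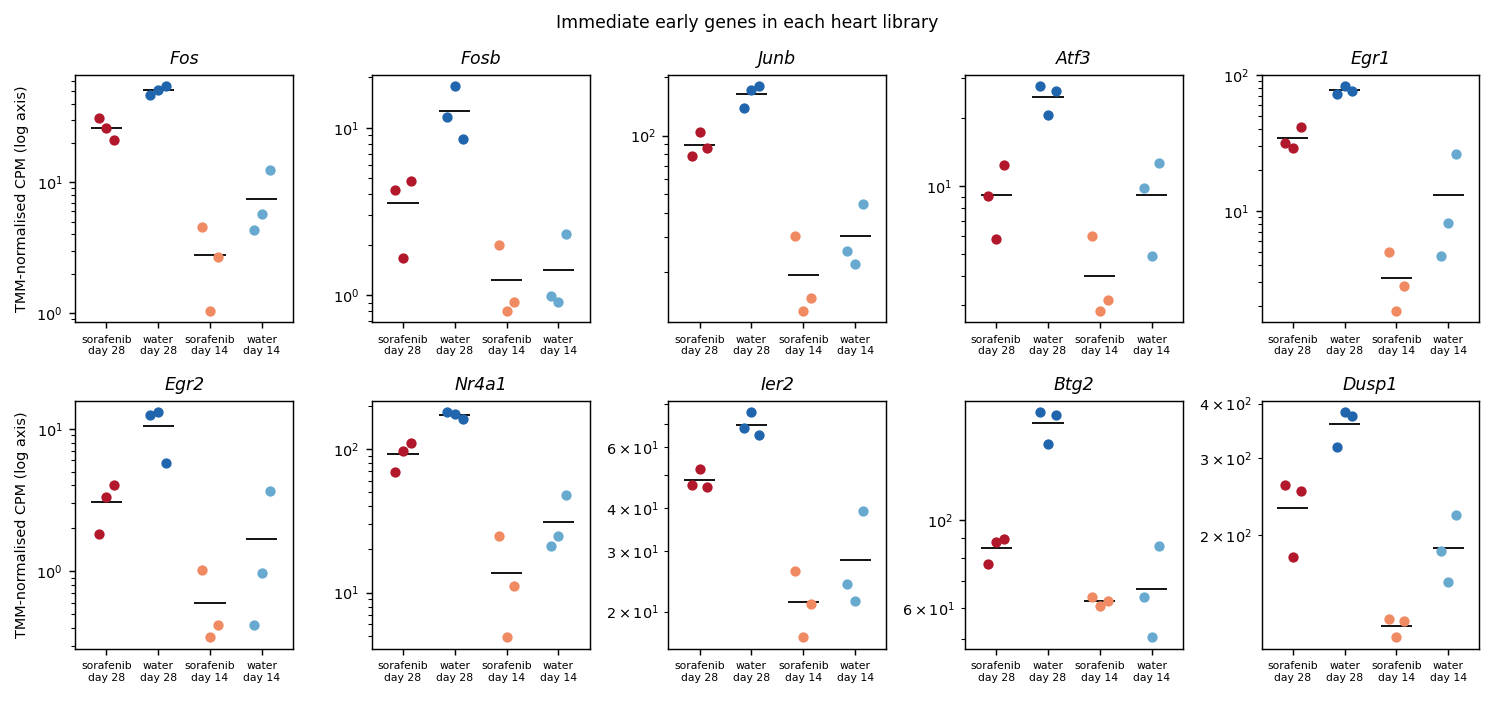
Level of each immediate early gene in each heart library, in TMM-normalised CPM on a log axis, with 1 point per library and a line at the mean of the 3 libraries of a group. At day 28 the sorafenib points of all 10 genes lie below the water points, and at day 14 the groups overlap except for Dusp1.

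Fos, Fosb and Junb encode subunits of the AP-1 transcription factor, in which a FOS protein pairs with a JUN protein, and Atf3 encodes a stress-induced bZIP factor of the ATF/CREB family. Fos (chr6:105121170-105124036, + strand, mRatBN7.2) had 30.9, 25.9 and 21.1 CPM in sorafenib hearts of day 28, against 46.9, 50.9 and 54.8 CPM in water hearts of that day. At day 14 it had 4.56, 1.03 and 2.66 CPM with sorafenib and 4.27, 5.69 and 12.5 CPM with water. The day 28 groups lay apart, and at day 14 sorafenib replicate 5 exceeded water replicate 2. The log2 fold change of Fos was -0.93 ± 0.19 (SE; adjusted p = 0.139) at day 28 and -1.43 ± 0.53 (adjusted p = 0.291) at day 14.

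Fosb (chr1:78954312-78961492, - strand) was among the scarcest members, with 4.26, 1.67 and 4.78 CPM in sorafenib hearts and 11.6, 17.8 and 8.61 CPM in water hearts of day 28. Its day 14 levels were 1.98, 0.804 and 0.908 CPM with sorafenib and 0.990, 0.915 and 2.33 CPM with water. Its log2 fold change was -1.59 ± 0.36 (adjusted p = 0.152) at day 28 and -0.19 ± 0.51 (adjusted p = 0.899) at day 14. Its exons overlap those of LOC103691049, and the counting took no account of strand, which makes its counts less certain. Junb (chr19:23176265-23178049, + strand) had 78.4, 104 and 86.4 CPM with sorafenib and 138, 171 and 180 CPM with water at day 28. At day 14 Junb had 30.4, 12.6 and 14.6 CPM with sorafenib and 25.5, 21.9 and 44.6 CPM with water. Its day 28 groups lay apart, while the day 14 groups overlapped, with log2 fold changes of -0.84 ± 0.18 (adjusted p = 0.139) and -0.67 ± 0.38 (adjusted p = 0.467).

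Atf3 (chr13:102751278-102800520, - strand) had 9.09, 5.85 and 12.4 CPM in sorafenib hearts of day 28, against 27.7, 20.5 and 26.3 CPM in water hearts. Its day 14 levels were 6.06, 2.81 and 3.15 CPM with sorafenib and 9.80, 4.93 and 12.7 CPM with water. Atf3 was the only AP-1 or ATF member with a log2 fold change below -1 at both days: -1.30 ± 0.24 (adjusted p = 0.137) at day 28, where it ranked 31 of 17021 genes by p, and -1.18 ± 0.39 (adjusted p = 0.239) at day 14. Its mean with sorafenib at day 28, 9.12 ± 3.29 CPM (SD, n = 3), was close to its mean with water at day 14, 9.14 ± 3.92 CPM (SD, n = 3).

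Egr1 and Egr2 encode zinc finger factors that bind GC-rich elements, and Nr4a1 encodes an orphan nuclear receptor. Egr1 (chr18:26463333-26465531, + strand) had 31.9, 29.2 and 41.9 CPM in sorafenib hearts of day 28, against 72.4, 83.5 and 76.2 CPM in water hearts. In day 14 hearts it had 4.98, 1.84 and 2.78 CPM with sorafenib and 4.69, 8.14 and 26.3 CPM with water. Water replicate 7 was far above the other two water libraries. Egr1 ranked 7 of 17021 genes by p at day 28, with a log2 fold change of -1.11 ± 0.17 (adjusted p = 0.118), and had -2.02 ± 0.69 (adjusted p = 0.275) at day 14.

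Egr2 (chr20:21051270-21056322, - strand) had 1.84, 3.34 and 4.05 CPM with sorafenib and 12.6, 13.1 and 5.73 CPM with water at day 28. At day 14 it had 1.02, 0.345 and 0.424 CPM with sorafenib and 0.417, 0.966 and 3.63 CPM with water; the lowest of these, sorafenib replicate 6, rests on 6 counts. It had the most negative log2 fold change of the 10 at day 28, -1.79 ± 0.44 (adjusted p = 0.161), and -1.47 ± 0.77 (adjusted p = 0.423) at day 14. Nr4a1 (chr7:132368399-132389300, + strand) had 69.7, 97.7 and 111 CPM with sorafenib and 182, 177 and 163 CPM with water at day 28. At day 14 Nr4a1 had 24.9, 4.88 and 11.2 CPM with sorafenib and 21, 24.7 and 47.7 CPM with water. The day 28 groups of Nr4a1 lay apart and the day 14 groups overlapped, with log2 fold changes of -0.88 ± 0.19 (adjusted p = 0.147) and -1.18 ± 0.58 (adjusted p = 0.414).

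The remaining genes encode a nuclear regulator and inhibitors. Ier2 encodes a short nuclear protein linked to transcription control, Btg2 an antiproliferative protein that recruits the CCR4-NOT deadenylase, and Dusp1 a phosphatase that inactivates p38, JNK and ERK. Ier2 (chr19:23494551-23496075, + strand) had 46.7, 51.8 and 46.1 CPM in sorafenib hearts and 68.5, 76.0 and 65.0 CPM in water hearts of day 28. At day 14 it had 26.2, 16.8 and 21.1 CPM with sorafenib and 24.0, 21.5 and 39.3 CPM with water. It had the smallest difference of the 10 at day 28, with a log2 fold change of -0.51 ± 0.15 (adjusted p = 0.218), and -0.40 ± 0.25 (adjusted p = 0.503) at day 14.

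Btg2 (chr13:45531881-45535642, - strand) had 77.4, 87.7 and 89.4 CPM with sorafenib and 187, 155 and 184 CPM with water at day 28. Levels at day 14 were 64.0, 60.7 and 62.3 CPM with sorafenib and 64.1, 50.6 and 85.7 CPM with water, so the sorafenib libraries lay within the range of the water libraries. Its log2 fold change was -1.01 ± 0.16 (adjusted p = 0.118) at day 28, rank 9 of 17021 genes by p, and -0.09 ± 0.18 (adjusted p = 0.846) at day 14. Dusp1 (chr10:16680489-16683276, + strand), the most abundant member, had 260, 178 and 252 CPM with sorafenib and 319, 382 and 374 CPM with water at day 28. At day 14 Dusp1 had 128, 116 and 127 CPM with sorafenib and 183, 156 and 222 CPM with water. Dusp1 was the member whose groups lay apart at both days, with a log2 fold change of -0.59 at each, ± 0.19 (adjusted p = 0.243) at day 28 and ± 0.16 (adjusted p = 0.173) at day 14.

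The average of the day effects was chosen with earlier results of these data known. Averaged over both days in a fit of all 12 libraries, Fos, Egr1, Atf3, Btg2 and Dusp1 fell with sorafenib. These are 5 of 10 members, against 2.41% of 18174 genes that fell, 10 of 10 were lower at an unadjusted p below 0.05 against 13.2% of genes, and the median over the 10 was -0.98 against -0.01 over all genes tested. The average log2 fold change was -1.20 ± 0.29 for Fos (adjusted p = 0.0379), -1.58 ± 0.35 for Egr1 (adjusted p = 0.029) and -1.26 ± 0.25 for Atf3 (adjusted p = 0.0214). It was -0.57 ± 0.12 for Btg2 (adjusted p = 0.0251) and -0.61 ± 0.13 for Dusp1 (adjusted p = 0.0231). Junb (-0.78, adjusted p = 0.0556), Egr2 (-1.64, adjusted p = 0.0597), Nr4a1 (-1.05, adjusted p = 0.0634), Ier2 (-0.48, adjusted p = 0.0801) and Fosb (-0.91, adjusted p = 0.107) did not pass in edgeR's test. DESeq2 called 7 of 10, adding Junb and Egr2, and the share of all genes that it called is not given here. Leaving out either sorafenib day 14 replicate 6 or sorafenib day 28 replicate 2 brought the count from 5 to 0. It was 2 without water day 14 replicate 3, sorafenib day 14 replicate 7 or water day 28 replicate 3, and 3 without water day 14 replicate 7, water day 28 replicate 4 or sorafenib day 28 replicate 3.

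Whether the sorafenib effect differed between the days was tested as an interaction in the same fit. No member passed (0% of genes did, and DESeq2 called 0 of 10). At an unadjusted p below 0.05 the difference, day 28 minus day 14, was -0.95 ± 0.24 on the log2 scale for Btg2 (adjusted p = 0.999) and -1.43 ± 0.64 for Fosb (adjusted p = 0.999), 2 of 10 members against 2.16% of genes. The other differences ran up to 0.88 for Egr1, and the median over the 10 was -0.14, with 7 of 10 below 0. The sign of that median depended on the libraries. It was 0.31 without sorafenib day 14 replicate 5, 0.07 without water day 14 replicate 3 and -0.44 without water day 14 replicate 7. With the replicate block it was 0.64, but there the day 14 effect is that of sorafenib replicate 7 against water replicate 7 alone. No other group has a replicate 5 or 6, and replicate 7 occurs only at day 14.

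**Figure D2:**
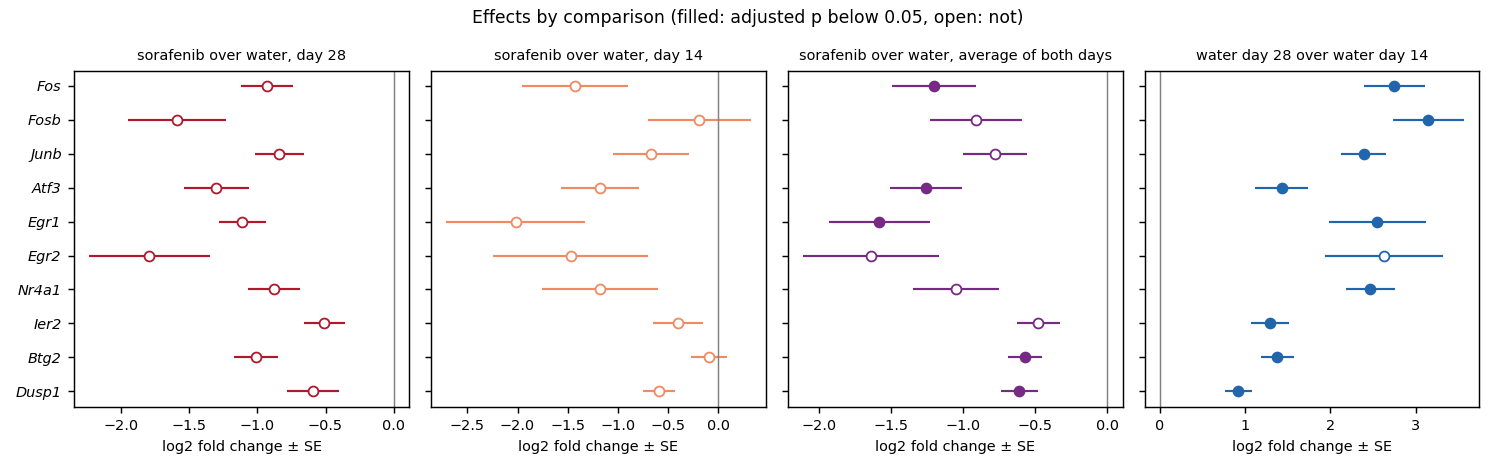
Log2 fold change of each gene with its standard error, for sorafenib over water at day 28, at day 14 and averaged over both days, and for water at day 28 over water at day 14. Filled points passed an adjusted p of 0.05: none at day 28 or day 14, Fos, Atf3, Egr1, Btg2 and Dusp1 in the average, and all but Egr2 between the water groups.

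The spread at day 14 ran in parallel across the genes. Sorafenib day 14 replicate 5 was the highest library of its group for 10 of 10 members, against 36.8% of all genes tested, and sorafenib day 14 replicate 6 was the lowest for 10 of 10, against 30.6%. Water day 14 replicate 7 was likewise the highest of its group for 10 of 10 members, against 35.5% of genes. Set against the water mean of that day, the mean log2 level of the 10 genes was -0.24, -1.38 and -0.96 in the sorafenib libraries of day 14 and -0.40, -0.36 and 0.76 in the water libraries. At day 28 it was -1.18, -1.26 and -0.93 with sorafenib and 0.00, 0.10 and -0.10 with water, so by this mean the libraries of each group lay close together there. Some single genes spread more at day 28, such as the scarce Fosb (-1.48, -2.77 and -1.32 with sorafenib) and Egr2 (0.353, 0.412 and -0.765 with water).

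**Figure D3:**
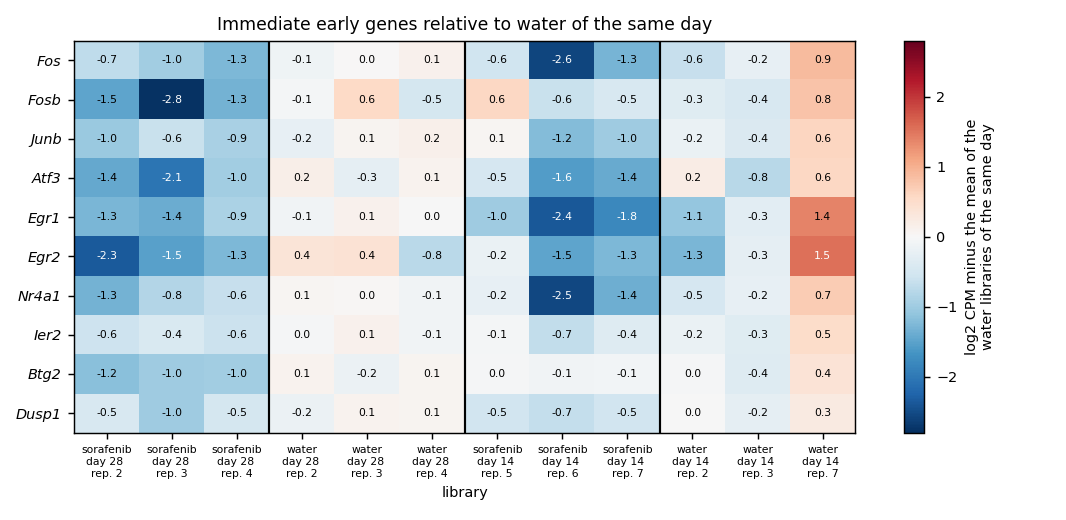
Log2 CPM of each gene in each library minus the water mean of that day. At day 28 every sorafenib cell is below 0, and at day 14 water replicate 7 is above 0 for all 10 genes.

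With every gene centred on its group means, the correlation of each member with the mean of the other 9 over the 12 libraries ran from 0.54 for Dusp1 and 0.61 for Btg2 to 0.91 for Egr1 and Ier2. Without centring it ran from 0.90 for Btg2 to 0.98 for Egr1 and Ier2. These are descriptions over libraries that the genes share.

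Water hearts also differed between the days. Of the 10 genes, 9 rose in water hearts of day 28 over water hearts of day 14, against 6.92% of 17210 genes that rose. For all 10, every water library of day 28 lay above every water library of day 14, as for 18.3% of genes. The median log2 fold change was 2.43, against -0.05 over all genes tested. Fosb had the largest, 3.15 ± 0.42 (adjusted p = 0.00449), with a mean of 12.7 ± 4.70 CPM at day 28 and 1.41 ± 0.797 CPM at day 14 (SD, n = 3 each). Fos averaged 50.9 ± 3.95 CPM at day 28 and 7.48 ± 4.38 CPM at day 14, a log2 fold change of 2.75 ± 0.36 (adjusted p = 0.00528).

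Nr4a1 (2.47 ± 0.29, adjusted p = 0.00373), Junb (2.39 ± 0.26, adjusted p = 0.00273) and Egr1 (2.55 ± 0.57, adjusted p = 0.0362) rose too, each value a log2 fold change. Egr2, at 2.63 ± 0.69, did not pass in edgeR's test (adjusted p = 0.0525) but did in 6 of 13 alternatives, among them DESeq2, which called 10 of 10 members. The share of all genes that DESeq2 called between the water groups is not given here. Atf3 (1.43 ± 0.31, adjusted p = 0.0238), Btg2 (1.38 ± 0.19, adjusted p = 0.00522), Ier2 (1.29 ± 0.22, adjusted p = 0.0107) and Dusp1 (0.92 ± 0.16, adjusted p = 0.0103) rose as well. The call of Egr1 held in 7 of 13 alternatives. It was lost without a filter on low counts, and when replicate 2 or 3 of day 14, or replicate 2, 3 or 4 of day 28, was left out. That of Atf3 was lost without water day 14 replicate 2 or water day 28 replicate 4, and that of Dusp1 without water day 14 replicate 3. Markers of cell types moved in the same comparison. Of 6 smooth muscle and pericyte markers, Myh11 (0.96 ± 0.14, adjusted p = 0.00563), Acta2 (0.65 ± 0.15, adjusted p = 0.0276), Rgs5 (0.62 ± 0.13, adjusted p = 0.0222) and Cnn1 (1.85 ± 0.49, adjusted p = 0.0492) rose, 4 of 6 against 6.92% of all genes. The other 2, Kcnj8 and Pdgfrb, had log2 fold changes below 0, with means of 31.6 and 126 CPM at day 28 and 35.6 and 127 CPM at day 14. The list summed to 379 to 457 CPM at day 28 and 280 to 330 CPM at day 14. Of 6 cardiomyocyte markers, Tnnt2 (1.22 ± 0.17, adjusted p = 0.0046) and Tnni3 (1.45 ± 0.21, adjusted p = 0.00575) rose, 2 of 6 against 6.92% of all genes. Their list had sums of 45572 to 68146 CPM at day 28 and 34477 to 45598 CPM at day 14. Of 3 mesothelial markers tested, Msln fell (-5.73 ± 1.16, adjusted p = 0.0263), 1 of 3 against 2.63% of all genes. The mesothelial list had sums of 15.1 to 33.6 CPM at day 28 and 42.3 to 72.7 CPM at day 14. The mitochondrial ribosomal RNA mt-Rnr2 rose by 2.02 ± 0.22 (adjusted p = 0.00272), 1 of 3 ribosomal RNA genes against 6.92% of all genes. At unadjusted p below 0.05, 3 of 3 were higher, against 15.2% of all genes, with a median of 1.69. The part of these values in the rise of the immediate early genes was not tested. Treatment length, the rats' age, the count table and any day of collection or processing coincide in this comparison and cannot be told apart. In whole-heart RNA, fewer cells of a type and less RNA per cell cannot be told apart either.

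Sorafenib hearts of day 28 lay above water hearts of day 14 for part of the genes. Treatment differs here together with the day, the count table and any processing day, and these cannot be told apart. Every sorafenib day 28 library exceeded every water day 14 library for Fos, Egr1, Junb, Ier2 and Nr4a1, which is 5 of 10 members against 14.3% of 18174 genes, and the ranges overlapped for Fosb, Egr2, Atf3, Btg2 and Dusp1. Per length (RPKM computed from TMM-normalised CPM and exon length), the order at day 28 was nearly the same in sorafenib and water hearts. Mean RPKM in sorafenib hearts was 120 for Dusp1, 50.3 for Junb, 33.7 for Btg2, 31.8 for Nr4a1, 31.6 for Ier2, 22.5 for Egr1, 16.4 for Fos, 4.60 for Atf3, 1.00 for Fosb and 0.827 for Egr2. In water hearts it was 187 for Dusp1, 91.3 for Junb, 69.5 for Btg2, 59.5 for Nr4a1, 50.7 for Egr1, 45.8 for Ier2, 32.0 for Fos, 12.5 for Atf3, 3.55 for Fosb and 2.81 for Egr2. The neighbours Btg2 and Nr4a1, and Fosb and Egr2, overlapped in both groups, Egr1 and Ier2 in water hearts, and Nr4a1 and Ier2 and also Egr1 and Fos in sorafenib hearts.

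Other immediate early transcription factors, 22 genes such as Jun, Myc, Klf4 and Nr4a2, were compared in the same way. Of the 20 tested, 13 rose in water hearts of day 28 over day 14, against 6.92% of all genes, among them Myc (1.97 ± 0.19, adjusted p = 0.00259), Cebpd (2.16 ± 0.25, adjusted p = 0.00289), Klf4 (1.42 ± 0.18, adjusted p = 0.00371) and Nr4a2 (1.87 ± 0.24, adjusted p = 0.00373), and the median was 1.22. With sorafenib none passed at day 28 or day 14 in edgeR's test, with 2 lower and 0 higher at unadjusted p below 0.05 at day 28 (7.83% and 7.04% of all genes) and 6 lower and 2 higher at day 14 (6.93% and 7.09%). The median was -0.15 at day 28 and -0.02 at day 14. In the average over both days only Klf6 fell (-0.49 ± 0.12, adjusted p = 0.0375), 1 of 20 against 2.41% of all genes, and its call held in 7 of 18 alternatives. Nr4a3, the relative of Nr4a1, had an average of -1.03 ± 0.38 (adjusted p = 0.124).

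Of 30 other immediate early effectors and inhibitors, 10 rose and 1 fell between the water groups, against 6.92% and 2.63% of all genes. Zfp36, which promotes decay of AU-rich transcripts, rose by 1.53 ± 0.18 (adjusted p = 0.00289), Ccn1, a matricellular protein, by 2.05 ± 0.25 (adjusted p = 0.00371) and Nfkbia, the NF-kappaB inhibitor, by 1.41 ± 0.18 (adjusted p = 0.00371) on the log2 scale. Averaged over both days, Plk2 (-0.80 ± 0.18, adjusted p = 0.0325) and Tnfaip3 (-0.67 ± 0.16, adjusted p = 0.0382) fell with sorafenib, 2 of 30 against 2.41% of all genes. Plk2 passed in 9 and Tnfaip3 in 7 of 18 alternatives. None passed at day 28 or day 14 in edgeR's test (3 lower and 1 higher at unadjusted p below 0.05 at day 28, against 7.83% and 7.04% of all genes, and 8 lower and 2 higher at day 14, against 6.93% and 7.09%), and the median was -0.33 at day 28 and -0.16 at day 14.

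Of 22 upstream regulators, Crem (1.01 ± 0.20, adjusted p = 0.0161) and Elk1 (0.77 ± 0.13, adjusted p = 0.0103) rose and Creb1 (-0.78 ± 0.11, adjusted p = 0.00563) and Rps6ka3 (-0.53 ± 0.11, adjusted p = 0.0238) fell in water hearts of day 28 over day 14, with a median of -0.02. These are 2 of 22 each way, against 6.92% of all genes that rose and 2.63% that fell. Srf, which encodes serum response factor, fell with sorafenib in the average over both days (-0.68 ± 0.15, adjusted p = 0.029), in 11 of 18 alternatives, as 1 of 22 against 2.41% of all genes. It had 68.2 ± 11.4 CPM with sorafenib and 96.8 ± 14.1 CPM with water at day 28, and 43.7 ± 9.95 CPM with sorafenib and 77.3 ± 18.2 CPM with water at day 14 (SD, n = 3 each).

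Of 10 ERK feedback genes, Spry4 (-1.32 ± 0.15, adjusted p = 0.00403) and Dusp6 (-0.83 ± 0.15, adjusted p = 0.0185) fell with sorafenib in the average over both days, 2 of 10 against 2.41% of all genes. Spry4 passed in 18 and Dusp6 in 15 of 18 alternatives. At unadjusted p below 0.05, 5 of the 10 were lower and 2 higher, against 13.2% and 11% of all genes. Spry4 had 16.9 ± 3.35 CPM with sorafenib and 45.0 ± 6.88 CPM with water at day 28, and 16.2 ± 3.53 CPM with sorafenib and 37.0 ± 7.73 CPM with water at day 14 (SD, n = 3 each). None of the 10 passed between the water groups in edgeR's test (1 lower and 0 higher at unadjusted p below 0.05, against 12.5% and 15.2% of all genes), where their median was 0.05 against 2.43 for the immediate early genes.

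**Figure D4:**
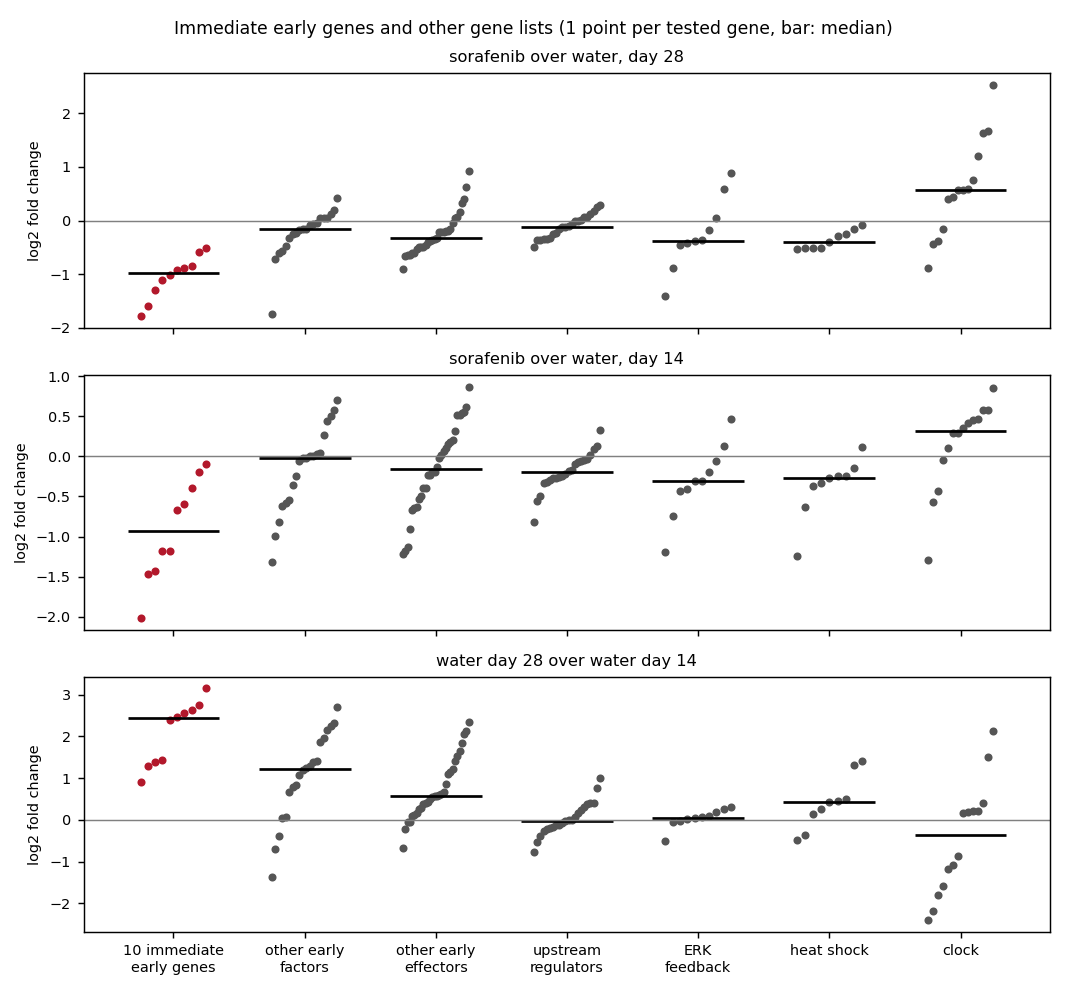
Log2 fold change of each tested gene of the 10 immediate early genes and of 6 other lists, with a bar at the list's median, for sorafenib over water at day 28 and day 14 and for water at day 28 over water at day 14. The medians of the 10 genes are -0.97, -0.92 and 2.43 in these 3 panels, and that of the ERK feedback list is 0.05 in the last.

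Several other lists moved beside these differences, and their part in them was not tested. Heat shock genes (9 of 10 found) had summed levels of 1265 to 2191 CPM with sorafenib and 2007 to 2663 CPM with water at day 28, and 1115 to 1510 CPM with sorafenib and 1226 to 1991 CPM with water at day 14. Within day 14, water replicate 7 was the highest for this list also. Hsph1 fell in the average over both days (-0.60 ± 0.15, adjusted p = 0.0389), 1 of 9 against 2.41% of all genes and in 8 of 18 alternatives. Bag3 (1.41 ± 0.17, adjusted p = 0.0036) and Hspb1 (1.32 ± 0.23, adjusted p = 0.0111) rose between the water groups, 2 of 9 against 6.92% of all genes. Of 14 clock genes found, 6 fell and 2 rose between the water groups, against 2.63% and 6.92% of all genes, among them Dbp (-2.40 ± 0.35, adjusted p = 0.00795), Nr1d2 (-1.18 ± 0.13, adjusted p = 0.00272) and Npas2 (1.5 ± 0.27, adjusted p = 0.0139). In the average over both days 5 clock genes rose and 1 fell with sorafenib (4.41% of all genes changed in either direction), among them Per2 (1.02 ± 0.19, adjusted p = 0.0183), Per3 (1.11 ± 0.21, adjusted p = 0.0189) and Clock (-0.49 ± 0.09, adjusted p = 0.0185). The labels used here give no hour of collection.

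The 6 myeloid markers summed to 74.8 to 182 CPM with sorafenib and 136 to 211 CPM with water at day 28, and to 72.4 to 149 CPM with sorafenib and 120 to 207 CPM with water at day 14, none at 0 in any library. Of these, C1qa and Cybb fell in the average over both days, 2 of 6 against 2.41% of all genes. So did Emcn (1 of 6 endothelial markers), Lum (1 of 6 fibroblast markers), Kcnj8 (1 of 6 smooth muscle and pericyte markers) and Sln (1 of 4 atrial markers). In that average, 4 of 6 endothelial and 5 of 6 fibroblast markers had log2 fold changes below 0. Only 3 of 6 smooth muscle and pericyte markers and 2 of 4 atrial markers did. Of those 2 lists, 2 and 1 markers were higher at unadjusted p below 0.05 in edgeR's test, against 11% of all genes. The 3 ribosomal RNA genes of the tables summed to 5545 to 25870 CPM with sorafenib and 4899 to 7163 CPM with water at day 28, and to 1661 to 7634 CPM with sorafenib and 1289 to 3216 CPM with water at day 14. Their highest value at day 14 was in sorafenib replicate 5, the library with the highest level of all 10 members in its group. The part of these values in the differences was not tested.

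Over the 12 libraries, the genes whose log2 level was most like the mean of the 10 members, among 15741 others with a mean of at least 1 CPM, were Rasd1 (Pearson r = 0.97), Ccn1 and Cdkn1a (0.96 each), Heyl, Snx9 and Arntl (0.95 each), and Hspb1 and Atf4 (0.94 each). Cdkn1a, which encodes p21, averaged 122 CPM with sorafenib and 181 CPM with water at day 28, and 27.8 CPM with sorafenib and 47.6 CPM with water at day 14. Arntl, a core clock gene, averaged 28.8 CPM with sorafenib and 52.9 CPM with water at day 28, and 4.87 CPM with sorafenib and 12 CPM with water at day 14. After centring each gene on its group means the most like were Ccdc112 (0.97), Myl7 and LOC100909729 (0.92 each), Apold1 and Rbm28 (0.90 each), Cep43 (0.89), and Bmx and Hnrnpm (0.88 each). Myl7 is an atrial myosin light chain. The 4 atrial markers summed to 113, 41.1 and 215 CPM in the sorafenib libraries and 16.8, 24.0 and 98.8 CPM in the water libraries of day 14. At day 28 they summed to 318, 155 and 225 CPM with sorafenib and 178, 308 and 25.2 CPM with water, so the groups overlapped, and Sln had no counts in the sorafenib libraries. The exons of Heyl overlap those of another gene. These correlations are over libraries, with the group differences included in the first set, and were chosen as the highest of many.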

How the data were processed

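The authors deposited whole-number read counts per gene, 1 table per day. Per the file headers they were made with featureCounts 2.0.1 in paired mode without a strand setting on mRatBN7.2, and per the submitters' processing notes STAR was the aligner (its version is not given in the sources used here). The library kit is named as directional in the labels. The day 14 table holds 2 further count columns that match no sample used here, and they were left out. Replicates differed beyond sampling noise in every pair.

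Counts were tested in R 4.3.3 with edgeR 4.0.16 (filterByExpr, TMM, robust quasi-likelihood test), with Benjamini-Hochberg adjustment over all genes tested and a threshold of 0.05. Each day and the 2 water groups had their own fit of 6 libraries, and the average and the difference of the day effects came from 1 fit of all 12. Levels are TMM-scaled CPM, and correlations used log2 CPM with a prior count of 2. Standard errors are the log2 fold change divided by the square root of F. DESeq2 1.42.0, other scaling, filters and fits, a replicate block and leaving out each library were the alternatives. The code was tested on simulated data.

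All 10 members are described. Of each other list, up to 4 genes of smallest p per comparison are named. The likeness lists hold the 8 highest correlations. C1qa, Cybb, Emcn, Lum, Kcnj8, Sln and the called markers between the water groups are named after their values were seen. The members, the lists and the average over both days were chosen with earlier results of these data known. Symbols matched the RefSeq GRCr8 table for 27234 genes (79.3%).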

Additional observations from a re-analysis of the deposited data

How the results depend on the processing

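All 10 genes kept log2 fold changes below 0 with sorafenib under each alternative run, except at day 14. There Fosb was 0.37 and Btg2 0.13 without water day 14 replicate 7, and Fosb was 0.05 without sorafenib day 14 replicate 6; leaving out 1 library gave -0.71 to 0.37 for Fosb and -0.26 to 0.13 for Btg2. The count of called members at day 14 was 1 with DESeq2 and 0 under each other alternative. At day 28 it was 8 with DESeq2, 5 without a filter on low counts (Fos, Fosb, Egr1, Atf3, Btg2), 1 in a fit of all 12 libraries (Btg2) and 4 with the replicate block (Egr1, Junb, Atf3, Btg2), and 0 when leaving out any one library. In the average over both days it was 3 without a filter on low counts, 7 with DESeq2, and 0 to 7 when 1 library was left out. For the difference between the days it was 0 under each alternative, while its median over the 10 genes, -0.14, was 0.64 with the replicate block and -0.44 to 0.31 when 1 library was left out. Between the water groups it was 7 to 10 when 1 library was left out and 10 with the replicate block and with DESeq2. The share of all genes called under each alternative is not given here, so these counts may not be particular to the members. The cause of these shifts was not tested, beyond the smaller number of libraries in a fit that leaves 1 out. The median over the 10 genes ranged from -1.39 to -0.37 at day 14, from -1.03 to -0.95 at day 28 and from 2.16 to 2.85 between the water groups. In the average it ranged from -1.47 with the replicate block, where day 14 rests on replicate 7 alone, to -0.72.

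The replicate numbers of day 28 are shared by both groups, but the labels do not say what they mark. The deviations of same-numbered libraries correlated at 0.10, 0.02 and 0.23 at day 28, so the block was kept as an alternative, and 2 of 3 sorafenib libraries correlated best with their own number. No paired analysis was possible at day 14 because the groups share only 1 replicate number. The block fits over both days also joined equal numbers of day 14 and day 28, which are separate samples. Between the water groups the blocked difference rests on numbers 2 and 3, whose deviations correlated at 0.02 and -0.03. In the average and the difference of the day effects, the blocked day 14 effect rests on replicate 7 alone. These block fits therefore say little about how firm the other fits are. Depth limits sorafenib day 28 replicate 3, where Fosb, Egr2 and Atf3 rest on 2, 4 and 7 counts.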
